A study of Mus musculus with 8 samples.

Results

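Amino acid transporters of 7 solute carrier (SLC) families were examined in individual mouse embryos taken whole at E6.75, the stage at which gastrulation begins. The members are all genes of the deposited table whose symbol belongs to the Slc1, Slc3, Slc6, Slc7, Slc36, Slc38 or Slc43 family, which gave 59 of 21182 genes. The RNA came from 4 embryos labelled Tet1/2/3 TKO, a triple knockout of the 3 TET methylcytosine dioxygenases, and from 4 embryos labelled Control. The sample descriptions of the Control embryos carry the letters WT, read here as wild type. All 8 had the C57BL/6 background and were collected at the same age as whole embryos. How the knockout alleles or the Control embryos were made, and which litters they came from, is not stated in the sample labels. Each embryo was lysed singly and gave 1 library, so the p-values below cover the spread between these embryos.

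Animal cells take up amino acids through carriers that work as exchangers, as sodium-coupled pumps or as proton-coupled pumps, and the SLC families differ in these modes. Slc3 genes encode heavy chains, single-pass glycoproteins that carry Slc7 light chains to the plasma membrane by a disulfide bond. The light chain does the transport, while the heavy chain gives the pair its place in the membrane. Before the placenta works, the visceral endoderm, an absorptive epithelium that encloses the mouse embryo, takes up and breaks down maternal protein, and many of these carriers are known from absorptive epithelia of gut and kidney.

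Levels are given in RPKM, which scales reads to gene length and to 1000000 mapped reads, so that genes of different length can be set side by side. Of the 59 members, 26 reached at least 1 RPKM in at least 4 of the 8 embryos and entered the test, as did 10451 genes in all. The other 33 averaged under 1 RPKM. Library depth, estimated from the lowest values, was 9.90 to 18.97 M reads (M for 1000000) in the TKO-labelled embryos and 12.39 to 16.42 M reads in the Control embryos. Tet1 was at 9.21 to 15.3 RPKM in the TKO-labelled embryos and 4.93 to 5.76 RPKM in the Control embryos, Tet2 at 0.598 to 0.993 and 0.444 to 0.850 RPKM, and Tet3 at 1.14 to 1.68 and 1.73 to 2.08 RPKM. Tet1 was thus higher and Tet3 lower in the TKO-labelled embryos, each without overlap, while the Tet2 ranges overlapped. These levels are for whole genes, so the loss of exons, and with it the genotype, was not tested. The embryos are therefore called TKO-labelled throughout. Among marker genes, those of visceral endoderm, parietal endoderm, epiblast and extraembryonic ectoderm were all detected above 1 RPKM in at least 1 embryo. Decidual markers, of maternal tissue, summed to 14.4 to 376 RPKM in TKO-labelled embryos and 2.86 to 396 RPKM in Control embryos. The gene Prl8a2 gave most of the highest sums, at 11.8 to 354 RPKM in TKO-labelled and 1.32 to 336 RPKM in Control embryos. Of the 8 decidual markers, 0 had a higher mean in TKO-labelled embryos. In whole embryos, fewer cells of a type and less RNA per cell cannot be told apart.

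Promoter sequences are shown for the transporters with the largest differences of the light chain system, Slc7a7, Slc7a9 and Slc3a2, whose product is the heavy chain partner of Slc7a7, and for Slc7a11, whose promoter is a textbook target of the amino acid response. In that response, shortage of amino acids activates the kinase Gcn2 and the transcription factor Atf4, which binds elements of the form TGATGNAA. Each line gives the 250 bases before the outermost RefSeq start of the gene, 5′ to 3′ on the gene's strand in build GRCm38.p6, with matches to these letters on either strand in capitals. The windows are chr14:54417945-54418194 on the minus strand for Slc7a7, chr7:35448842-35449091 on the plus strand for Slc7a9, chr19:8713898-8714147 on the minus strand for Slc3a2 and chr3:50443614-50443863 on the minus strand for Slc7a11. They were matched by symbol, since the values were made on build mm9.
Slc7a7: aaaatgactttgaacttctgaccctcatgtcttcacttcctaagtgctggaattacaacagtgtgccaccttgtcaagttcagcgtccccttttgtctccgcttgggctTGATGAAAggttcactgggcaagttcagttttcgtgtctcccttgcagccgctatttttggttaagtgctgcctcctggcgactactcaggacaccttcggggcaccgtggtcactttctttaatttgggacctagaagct
Slc7a9: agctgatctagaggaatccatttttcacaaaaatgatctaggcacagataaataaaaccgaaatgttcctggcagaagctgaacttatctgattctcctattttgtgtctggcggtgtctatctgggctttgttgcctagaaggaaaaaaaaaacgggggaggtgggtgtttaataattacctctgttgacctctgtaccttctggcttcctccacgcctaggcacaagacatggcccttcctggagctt
Slc3a2: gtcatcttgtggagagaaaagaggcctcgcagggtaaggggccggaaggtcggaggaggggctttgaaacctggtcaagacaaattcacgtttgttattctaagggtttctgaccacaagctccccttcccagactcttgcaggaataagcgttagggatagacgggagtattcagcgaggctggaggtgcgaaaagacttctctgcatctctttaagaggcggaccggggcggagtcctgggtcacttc
Slc7a11: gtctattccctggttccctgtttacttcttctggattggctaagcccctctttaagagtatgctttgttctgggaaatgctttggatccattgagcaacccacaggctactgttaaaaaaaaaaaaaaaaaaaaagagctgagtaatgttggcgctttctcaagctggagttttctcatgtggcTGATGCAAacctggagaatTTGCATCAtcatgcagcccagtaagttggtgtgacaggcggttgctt
The Slc7a11 window held 2 matches, 66 and 47 bases before the start, and the Slc7a7 window held 1 match, 141 bases before the start. The windows of Slc7a9 and Slc3a2 held 0. Slc7a7 had 5 windows in all, and another of them, chr14:54417703-54417952 on the minus strand, held 1 match at a different place. RefSeq windows were found for 41 of the 59 members, and 2 of the 41 held a match in any window, against 3.91% of the 27025 genes with a window. Only this motif was searched, and overlapping matches were counted, on both strands. A match is a description of the letters and not evidence of binding. The number of CpG pairs, the sites that TET enzymes and DNA methyltransferases act on, was 7 in the window shown for Slc7a7, 4 for Slc7a9, 11 for Slc3a2 and 2 for Slc7a11, against a median of 6 over all windows.

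The transporter RNA of the E6.75 embryo was concentrated in few genes. The summed level of the 59 members was 402, 327, 332 and 311 RPKM in TKO-labelled replicates 1 to 4 and 288, 286, 231 and 321 RPKM in Control replicates 1 to 4. The highest 5 members, Slc3a2, Slc7a3, Slc38a2, Slc7a7 and Slc1a5, made up 61.9 ± 6.72% of this sum in TKO-labelled embryos and 56.2 ± 3.48% in Control embryos (SD, n = 4 each). The Slc7 family alone gave 47.0% of the mean sum in TKO-labelled and 41.5% in Control embryos. In order of their mean over all 8 embryos, Slc3a2 (55.3 RPKM) and Slc7a3 (54.5 RPKM) were followed by Slc38a2 (32.2 RPKM), Slc7a7 (24.2 RPKM), Slc1a5 (19.7 RPKM), Slc7a6 (15.5 RPKM), Slc7a5 (14.8 RPKM), Slc38a4 (14.1 RPKM) and Slc7a14 (13.2 RPKM). The ranges of neighbours in this order overlapped at each step. Slc3a2 exceeded Slc7a3 in 3 of 8 embryos, and Slc7a6 exceeded Slc7a5 in 4 of 8.

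**Figure D1:**
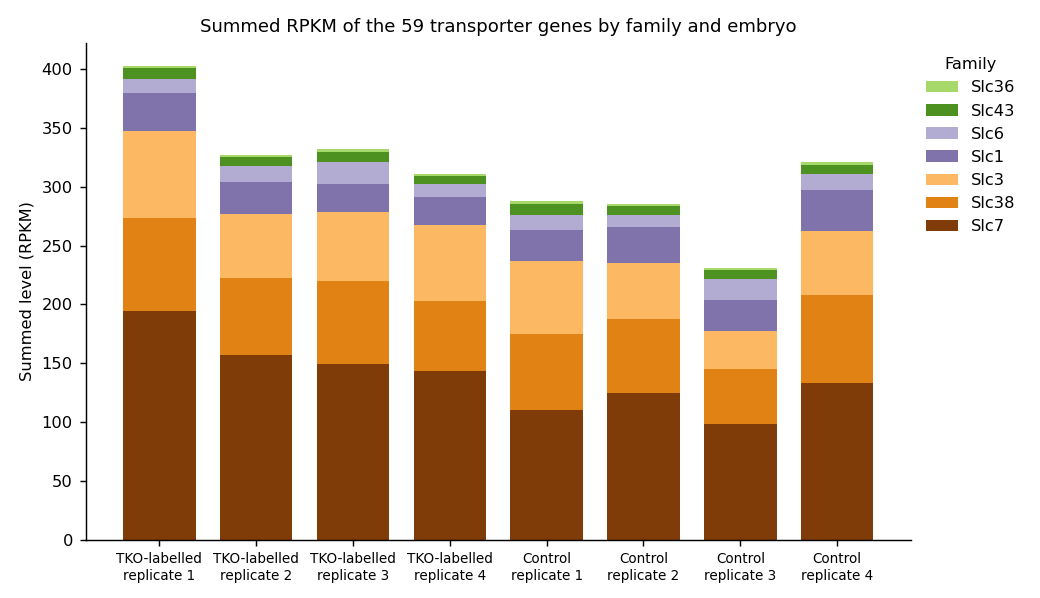
Stacked bars give the summed RPKM of the 59 members in each embryo, coloured by family, with the 4 TKO-labelled embryos left of the 4 Control embryos. The sum ran from 311 to 402 RPKM in TKO-labelled embryos and from 231 to 321 RPKM in Control embryos, and Slc7 genes form the largest part of every bar.

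The comparison of TKO-labelled with Control embryos asks how transcript levels depend on the TET enzymes. None of the 26 tested members passed the threshold, an adjusted p under 0.05 by limma with Benjamini-Hochberg adjustment over all 10451 genes, where 0.00957% of genes did. Slc7a7 and Slc7a9 had a limma p under 0.05 before adjustment, 2 members or 7.69% of those tested, against 17.5% of all genes. Both had higher values in TKO-labelled embryos, as had 13.9% of all genes at that p. No member had lower values at that p, against 3.6% of all genes. The groups were fully apart in 1 member, Slc7a7, or 3.85%, against 9.41% of all genes, or 7.55% with the TKO-labelled embryos higher. Log2 differences, TKO-labelled minus Control on log2(RPKM + 1), were positive for 16 of the 26, or 61.5%, against 66.5% of all genes. Their median was 0.14, against 0.09 over all genes, so the members as a list did not stand out by counts or by median. The count of 16 was the same under median-ratio and upper-quartile scaling, while the share of all genes with a positive difference became 51.1% and 43.8%. Of all genes at an unadjusted p under 0.05, 1448 had higher and 376 lower values as deposited, 773 and 751 after median-ratio scaling, and 554 and 995 after upper-quartile scaling. The log2(RPKM + 1) scale understates the change of low genes.

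**Figure D2:**
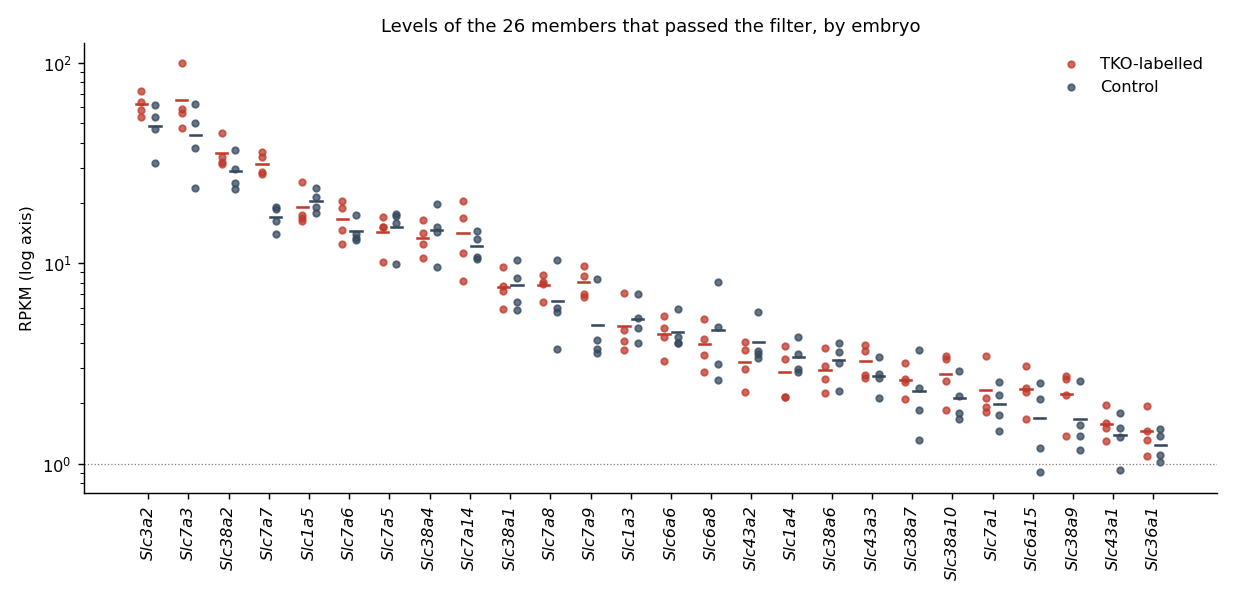
Each point is 1 embryo and each short line a group mean, in RPKM on a log axis, for the 26 members that passed the filter, with TKO-labelled embryos left of Control embryos and a dotted line at 1 RPKM. The groups overlap for each member but Slc7a7.

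**Figure D3:**
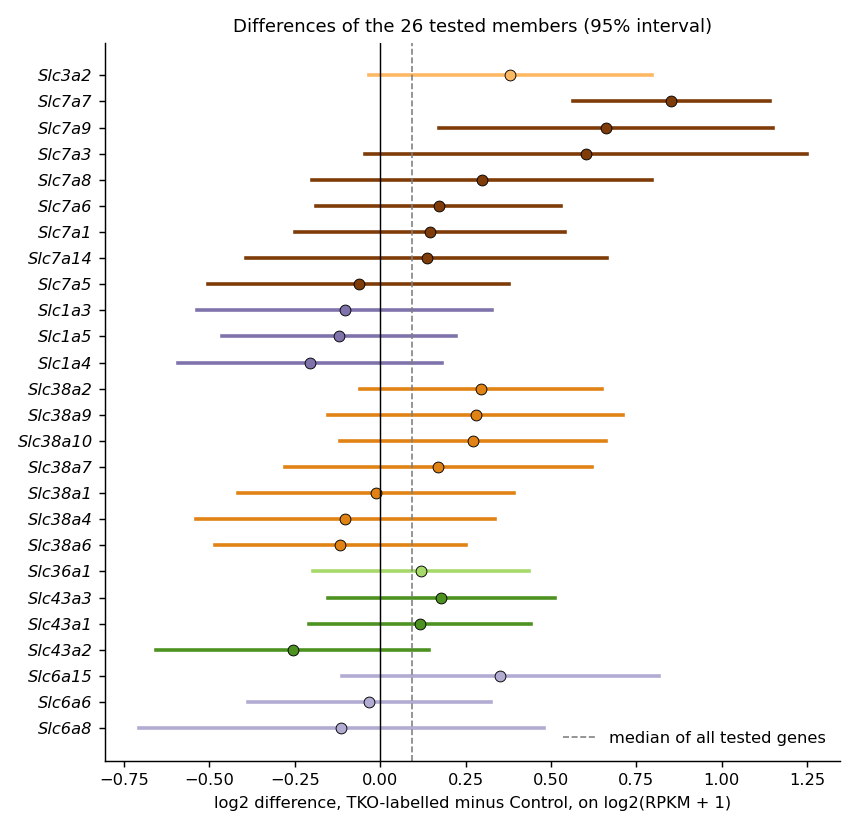
Points are log2 differences, TKO-labelled minus Control, and lines their 95% limma intervals for the 26 tested members, ordered by family. The intervals of Slc7a7 (0.56 to 1.14) and Slc7a9 (0.17 to 1.15) lie above 0, and those of the other 24 members include 0.

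Among heavy chains, Slc3a2, which encodes the CD98 heavy chain, had the highest mean of the members over all 8 embryos, with Slc7a3 close to it. It was at 72.7, 53.8, 58.1 and 63.5 RPKM in TKO-labelled replicates 1 to 4 and at 61.9, 46.8, 31.7 and 53.5 RPKM in Control replicates 1 to 4. Control replicate 1 lay inside the TKO-labelled range and the other 3 Control embryos below it. The log2 difference was 0.38 (limma adjusted p = 0.323), with a 95% interval of -0.03 to 0.79. It was 0.51 with Control replicate 1 left out (limma adjusted p = 0.207) and 0.20 with Control replicate 3 left out (limma adjusted p = 0.555). Slc3a1, which encodes rBAT, the other heavy chain, was at 0.517 to 0.743 RPKM in TKO-labelled and 0.406 to 0.814 RPKM in Control embryos, below the filter.

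Of the light chains that pair with the CD98 heavy chain, Slc7a7 had the largest difference among all tested members. Slc7a7 encodes the transporter that exports cationic amino acids in exchange for neutral ones at the basolateral membrane of absorptive epithelia, and in humans its loss causes lysinuric protein intolerance. It was at 35.7, 27.9, 28.5 and 33.8 RPKM in TKO-labelled replicates 1 to 4 and at 19.0, 18.7, 16.3 and 13.98 RPKM in Control replicates 1 to 4. All 4 TKO-labelled values lay above all 4 Control values, with a gap of 27.9 against 19.0 RPKM between the nearest embryos. The means were 31.5 ± 3.88 RPKM in TKO-labelled and 17.01 ± 2.35 RPKM in Control embryos (SD, n = 4 each), a ratio of 1.85. The log2 difference was 0.85 (SE 0.13, 95% interval 0.56 to 1.14), with a limma p of 5.15e-05 before and 0.0897 after adjustment, rank 6 of the 10451 genes by p. The exact two-sided permutation p was 0.0286, the smallest that 4 against 4 allows. Over all alternatives the adjusted p ran from 0.0505 to 0.320 and the log2 difference from 0.71 to 0.91.

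The other CD98 light chains overlapped between groups. Slc7a6, a second exchanger of cationic for neutral amino acids, was at 12.4 to 20.5 RPKM in TKO-labelled and 13.1 to 17.5 RPKM in Control embryos (log2 difference 0.17, limma adjusted p = 0.605). Slc7a5, which encodes LAT1, the carrier of large neutral amino acids such as leucine, was at 10.2 to 16.98 and 9.87 to 17.7 RPKM (-0.06, limma adjusted p = 0.893). Slc7a8, which encodes LAT2, a neutral amino acid exchanger of epithelia, was at 8.09, 7.89, 8.69 and 6.37 RPKM in TKO-labelled replicates 1 to 4 and at 10.3, 5.72, 3.75 and 6.00 RPKM in Control replicates 1 to 4. Control replicate 1 was the highest of all 8 embryos, and the other Control embryos lay below every TKO-labelled one. Its log2 difference was 0.30 (95% interval -0.20 to 0.80, limma adjusted p = 0.513), and 0.52 without Control replicate 1 (limma adjusted p = 0.178). Slc7a10, a neuronal carrier of small neutral amino acids, was at 0.289 to 0.524 RPKM in TKO-labelled and 0.214 to 0.328 RPKM in Control embryos. Slc7a11, which encodes the cystine importer xCT, was near 0, at 0.017 to 0.109 and 0.059 to 0.156 RPKM. Its promoter window is the one with 2 matches above.

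Summed over Slc7a5 to Slc7a8, Slc7a10 and Slc7a11, the CD98 light chains reached 65.6 to 73.7 RPKM in TKO-labelled embryos and 43.6 to 64.8 RPKM in Control embryos as deposited. After median-ratio scaling the sums overlapped, at 60.4 to 71.7 and 47.3 to 64.7 RPKM, and they overlapped after upper-quartile scaling as well. Slc7a7, whose groups stayed apart under both scalings, made up 44.6 ± 6.29% of this sum in TKO-labelled embryos and 32.1 ± 4.59% in Control embryos (SD, n = 4 each). Without Slc7a7 the sum was 31.8 to 44.0 RPKM and 27.2 to 45.8 RPKM, and the groups overlapped. The level of Slc3a2 over this light chain sum was 0.879 ± 0.117 in TKO-labelled and 0.898 ± 0.139 in Control embryos, a difference smaller than the spread. Slc7a7 stood at 1.36 to 2.88 times the level of Slc7a6 in TKO-labelled embryos and at 1.05 to 1.34 times in Control embryos.

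Slc7a9, the light chain that pairs with rBAT to take up cystine and cationic amino acids at the apical membrane of kidney and gut, had the second smallest p. It was at 7.06, 6.78, 9.66 and 8.62 RPKM in TKO-labelled replicates 1 to 4 and at 8.32, 3.57, 4.12 and 3.72 RPKM in Control replicates 1 to 4. Control replicate 1 lay inside the TKO-labelled range, and the other 3 Control embryos well below it. The means were 8.03 ± 1.36 RPKM in TKO-labelled and 4.93 ± 2.27 RPKM in Control embryos (SD, n = 4 each). The log2 difference was 0.66 (SE 0.22, 95% interval 0.17 to 1.15), with a limma p of 0.0128 before and 0.200 after adjustment and an exact permutation p of 0.0857. Without Control replicate 1 it was 0.90 (limma adjusted p = 0.0974). Slc7a9 exceeded its heavy chain gene Slc3a1 by 9.502 to 16.7 times in TKO-labelled and by 4.56 to 14.4 times in Control embryos. The remaining light chains, Slc7a12 and Slc7a13, the other known partner of rBAT, were each under 0.1 RPKM in all 8 embryos.

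**Figure D4:**
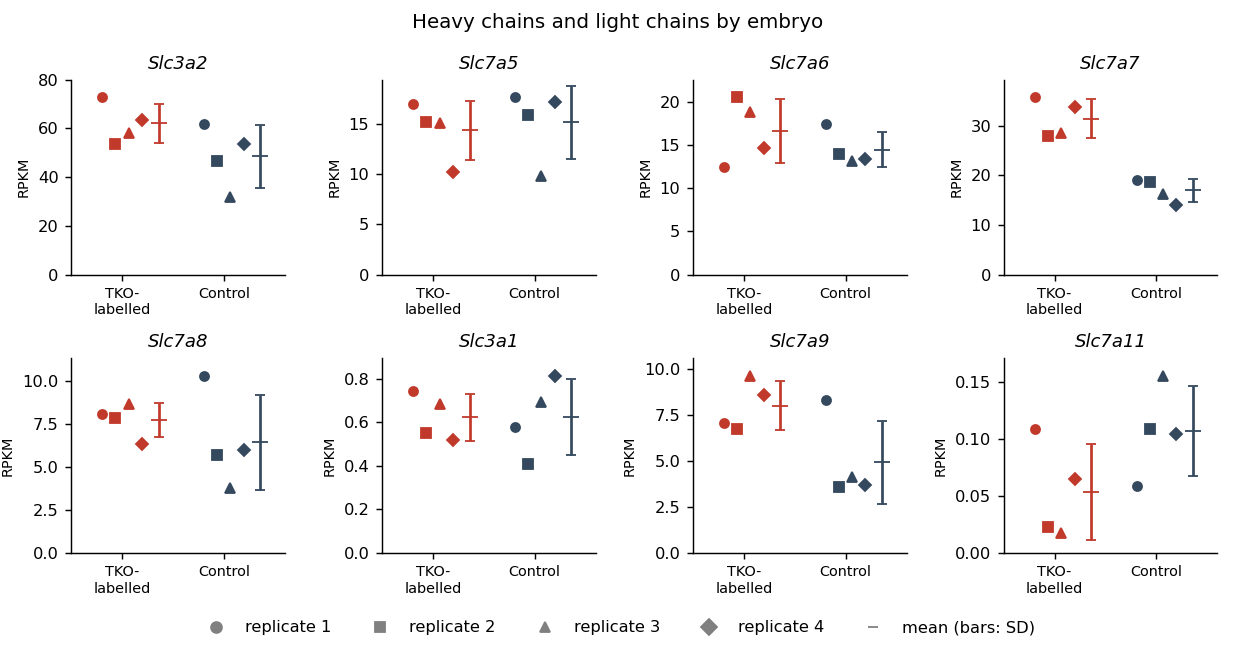
Each symbol is the RPKM of 1 embryo, its shape the replicate number, with the group mean and SD beside it, for 2 heavy chain genes and 6 light chain genes, TKO-labelled left of Control. For Slc7a7 the groups are apart, and for Slc7a9 and Slc7a8 only Control replicate 1 reaches the TKO-labelled values.

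Control replicate 1 was also the Control embryo with the highest level of visceral endoderm markers. The 16 markers summed to 1985, 1989, 2326 and 2021 RPKM in TKO-labelled replicates 1 to 4 and to 2962, 1644, 905 and 1166 RPKM in Control replicates 1 to 4. By this sum, as by Slc7a9 and Slc7a8, Control replicate 1 was the highest Control embryo and apart from the others. The order of Control replicates 2 to 4 by this sum was not that by either gene. Slc7a9 was at 3.57, 4.12 and 3.72 RPKM in them, and Slc7a8 at 5.72, 3.75 and 6.00 RPKM. For Slc7a7, Control replicate 1, with the highest marker sum, had 19.0 RPKM, and each TKO-labelled embryo had at least 27.9 RPKM. Parietal endoderm markers summed to 263, 710, 930 and 605 RPKM in TKO-labelled replicates 1 to 4 and to 158 to 312 RPKM in Control embryos. The TKO-labelled mean was higher for 13 of the 16 visceral and for all 12 parietal endoderm markers. TKO-labelled replicate 1, within the Control range of that sum, had the highest Slc7a7 value of all 8 embryos. Slc7a7 is known from macrophages too. The 7 blood and macrophage markers summed to 0.561 to 21.5 RPKM in TKO-labelled embryos and 0.857 to 29.8 RPKM in Control embryos, and 2 of the 7 had a higher TKO-labelled mean. S100a8, a neutrophil gene, gave most of the highest sums, at 0.18 to 18.7 RPKM in TKO-labelled and 0 to 26.8 RPKM in Control embryos. Lyz2, a gene of macrophages and neutrophils, was at 0 to 2.25 and 0.286 to 1.21 RPKM, and the other 5 markers were under 1 RPKM in all embryos. The part of visceral endoderm, parietal endoderm or blood cells in the Slc7a7, Slc7a9 and Slc7a8 values was not tested. Without Control replicate 1, the groups did not overlap in 4 members, Slc3a2, Slc7a7, Slc7a8 and Slc7a9, or 4 of 26, against 16.5% of all genes.

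The cationic amino acid transporters of the Slc7 family work without a heavy chain. Slc7a3, an X-linked gene for a carrier of arginine and lysine, was as abundant as Slc3a2. It was at 99.8, 56.0, 47.5 and 58.6 RPKM in TKO-labelled replicates 1 to 4 and at 23.8, 50.2, 37.7 and 62.5 RPKM in Control replicates 1 to 4. TKO-labelled replicate 1 and Control replicate 1 were the extremes, and the other embryos overlapped. The log2 difference was 0.60 (95% interval -0.04 to 1.25, limma adjusted p = 0.316), 0.38 without TKO-labelled replicate 1 and 0.35 without Control replicate 1. Epiblast markers had the same extremes. The 10 of them summed to 1029, 758, 597 and 822 RPKM in TKO-labelled replicates 1 to 4 and to 552, 767, 599 and 682 RPKM in Control replicates 1 to 4, and their part in the Slc7a3 values was not tested. Slc7a1, the broadly expressed carrier of cationic amino acids, was at 1.80 to 3.46 and 1.45 to 2.55 RPKM (log2 difference 0.14, limma adjusted p = 0.701). Slc7a2 was under 1 RPKM in all embryos. Slc7a14, a related gene known from neurons, was at 8.14 to 20.4 RPKM in TKO-labelled and 10.5 to 14.4 RPKM in Control embryos (0.14, limma adjusted p = 0.791).

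**Figure D5:**
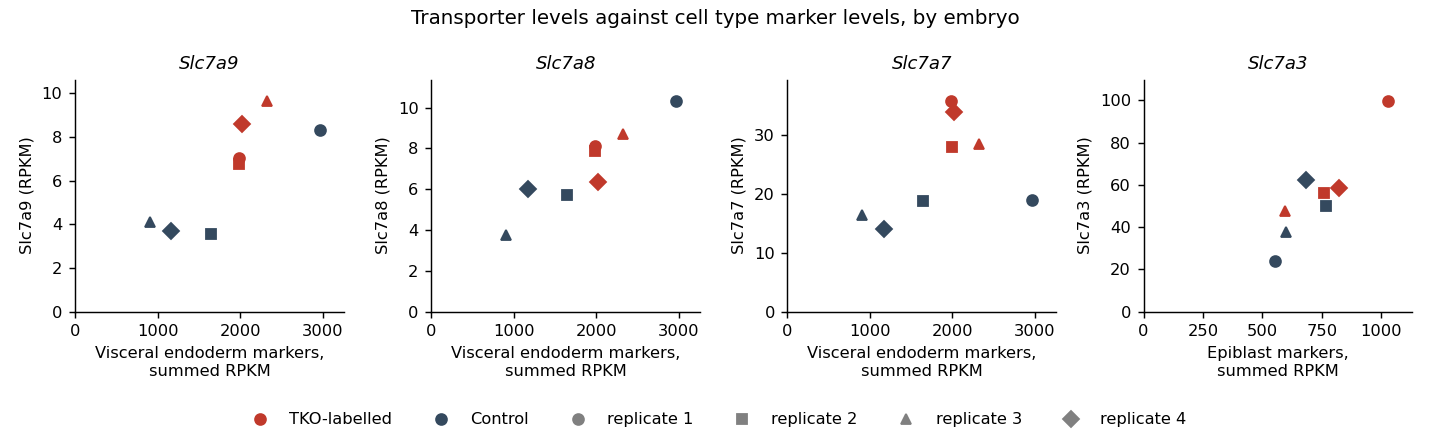
Each symbol is 1 embryo, with a transporter level in RPKM against the summed RPKM of visceral endoderm markers (Slc7a9, Slc7a8 and Slc7a7) or epiblast markers (Slc7a3). Control replicate 1, at 2962 RPKM of visceral endoderm markers, lies with the TKO-labelled embryos for Slc7a9 (8.32 RPKM) and with the other Control embryos for Slc7a7 (19.0 RPKM).

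Together the 15 Slc7 genes reached 194, 157, 150 and 143 RPKM in TKO-labelled replicates 1 to 4 and 110, 125, 98.2 and 133 RPKM in Control replicates 1 to 4. Every TKO-labelled sum lay above every Control sum as deposited. The groups overlapped at 131.9 to 188.9 and 106.6 to 135.8 RPKM after median-ratio scaling, and at 126.7 to 188.4 and 108.3 to 139.9 RPKM after upper-quartile scaling. Slc7a3 and Slc7a7 supplied 59.6 ± 9.03% of it in TKO-labelled and 51.6 ± 8.53% in Control embryos (SD, n = 4 each). Without both genes the sum was 50.7 to 73.6 RPKM in TKO-labelled and 44.2 to 67.1 RPKM in Control embryos, with overlap. Of the 8 tested Slc7 genes 7 had positive differences, as deposited and under both scalings. The share of all genes was 66.5% as deposited, 51.1% after median-ratio and 43.8% after upper-quartile scaling. The median over the tested Slc7 genes was 0.23 as deposited and 0.14 and 0.11 after these scalings, against 0.09, 0.01 and -0.03 over all genes.

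The sodium-coupled carriers of glutamine and small neutral amino acids belong to the Slc1 and Slc38 families. Slc38a2, a carrier known to be induced when amino acids are short, was at 44.6, 33.8, 32.1 and 31.5 RPKM in TKO-labelled replicates 1 to 4 and at 25.3, 29.7, 23.5 and 37.0 RPKM in Control replicates 1 to 4. Control replicate 4 lay inside the TKO-labelled range and the other Control embryos below it. The log2 difference was 0.30 (95% interval -0.06 to 0.65, limma adjusted p = 0.364). Slc38a1, its close relative, was at 5.93 to 9.57 and 5.84 to 10.3 RPKM (-0.01, limma adjusted p = 0.981). Slc38a4, a paternally expressed imprinted gene of liver and placenta, was at 10.6 to 16.4 RPKM in TKO-labelled and 9.63 to 19.8 RPKM in Control embryos (-0.10, limma adjusted p = 0.816). Slc38a1, Slc38a2 and Slc38a4 lie next to each other in the genome with 0 protein-coding genes between them in RefSeq, and their log2 differences were -0.01, 0.30 and -0.10.

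The other Slc38 genes were low. Slc38a9, a lysosomal protein that reports arginine to the growth regulator mTORC1, was at 1.37, 2.73, 2.63 and 2.20 RPKM in TKO-labelled replicates 1 to 4 and at 2.59, 1.16, 1.37 and 1.56 RPKM in Control replicates 1 to 4, with overlap (log2 difference 0.28, limma adjusted p = 0.478). Slc38a7, a lysosomal glutamine carrier in human cells, was at 2.10 to 3.18 and 1.32 to 3.71 RPKM, and Slc38a10 at 1.86 to 3.44 and 1.67 to 2.89 RPKM. Slc38a6 was at 2.25 to 3.79 and 2.31 to 4.02 RPKM. Of the 11 Slc38 genes 7 were tested, 4 of them (57.1%) with positive differences, against 66.5% of all genes.

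All 3 tested Slc1 genes had negative differences, as deposited and under both scalings, and each overlapped between groups. Of all genes 66.5% had positive differences as deposited, and 51.1% and 43.8% after median-ratio and upper-quartile scaling. Slc1a5, which encodes ASCT2, an exchanger that takes up glutamine, was at 25.5, 16.2, 16.7 and 17.5 RPKM in TKO-labelled replicates 1 to 4 and at 19.1, 21.4, 17.8 and 23.7 RPKM in Control replicates 1 to 4. TKO-labelled replicate 1 was the highest of all embryos and the other 3 TKO-labelled embryos lay below every Control embryo. The log2 difference was -0.12 (95% interval -0.46 to 0.22, limma adjusted p = 0.710), and -0.26 without TKO-labelled replicate 1 (limma adjusted p = 0.289). Slc1a4, the related exchanger of alanine and serine, was at 2.15 to 3.87 and 2.88 to 4.27 RPKM (-0.21, limma adjusted p = 0.562). Slc1a3, the glutamate transporter GLAST of glial cells, was at 3.70 to 7.06 and 3.98 to 7.04 RPKM (-0.10, limma adjusted p = 0.809). The other 4 Slc1 genes, also carriers of glutamate, stayed under 1 RPKM in all embryos.

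Proton-coupled and facilitative carriers were low and overlapped between groups. Slc36a1, a proton-coupled carrier of small amino acids at the lysosome and the apical membrane, was at 1.09 to 1.94 RPKM in TKO-labelled and 1.02 to 1.49 RPKM in Control embryos (log2 difference 0.12, limma adjusted p = 0.690). Slc36a4 was at 0 to 0.527 and 0.375 to 0.467 RPKM, below the filter. Slc43a2, a facilitative carrier of large neutral amino acids, was at 2.27 to 4.03 RPKM in TKO-labelled embryos and 3.37 to 5.73 RPKM in Control embryos (-0.26, 95% interval -0.66 to 0.14, limma adjusted p = 0.483). Its highest value again belonged to Control replicate 1. Slc43a1, of the same function, was at 1.29 to 1.95 and 0.931 to 1.78 RPKM. Slc43a3, known as a carrier of nucleobases and not of amino acids, was at 2.66 to 3.90 and 2.12 to 3.399 RPKM (0.18, limma adjusted p = 0.556).

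The Slc6 family, which carries neurotransmitters, osmolytes and amino acids with sodium and chloride, had 17 genes, of which 3 passed the filter. Slc6a6, the taurine carrier, was at 3.24 to 5.45 RPKM in TKO-labelled and 3.98 to 5.88 RPKM in Control embryos (log2 difference -0.03, limma adjusted p = 0.936). Slc6a8, the X-linked creatine carrier, was at 2.87 to 5.29 and 2.60 to 8.03 RPKM (-0.11, limma adjusted p = 0.855). Slc6a15, a carrier of branched-chain amino acids and proline best known from brain, was at 1.68 to 3.08 and 0.906 to 2.52 RPKM (0.35, limma adjusted p = 0.408). The other 14 averaged under 1 RPKM, among them the carriers of dopamine (Slc6a3), serotonin (Slc6a4) and glycine (Slc6a5 and Slc6a9). Slc6a2, the noradrenaline carrier, was named after its values were seen. It was at 0.083, 1.403, 2.02 and 0.925 RPKM in TKO-labelled replicates 1 to 4 and at 0.1, 0.055, 0.343 and 0.481 RPKM in Control replicates 1 to 4. The TKO-labelled embryos 2 to 4, which had the highest parietal endoderm marker sums, were the highest, while replicate 1 lay within the Control range (exact permutation p = 0.114). The part of parietal endoderm in these values was not tested.

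Genes that sense and respond to amino acids were compared with the transporters. In the mTORC1 amino acid sensing list, 0 of 26 tested genes passed the threshold by limma, and 6 had an unadjusted p under 0.05, all with higher values in TKO-labelled embryos, against 13.9% of all genes that way. After median-ratio and after upper-quartile scaling there were 5 such genes, all higher, against 7.4% and 5.3% of all genes that way. Positive differences were found for 23 of the 26 (88.5%), against 66.5% of all genes. Under median-ratio scaling there were 19 (73.1%), against 51.1%, and under upper-quartile scaling 17 (65.4%), against 43.8%. The list as drawn up had 31 genes, of which 26 were in the deposited values. Sec13, a shared subunit of the GATOR2 complex and of vesicle coats, was at 78.9, 69.2, 79.8 and 108 RPKM in TKO-labelled replicates 1 to 4 and at 52.0, 52.0, 44.5 and 43.9 RPKM in Control replicates 1 to 4. The groups did not overlap, as deposited or under either scaling, and the log2 difference was 0.78 (limma adjusted p = 0.120). Rragc, a Rag GTPase that brings mTORC1 to the lysosome, averaged 18.4 ± 3.88 RPKM in TKO-labelled and 12.1 ± 0.598 RPKM in Control embryos (SD, n = 4 each), with a log2 difference of 0.54 (limma adjusted p = 0.160). Its groups did not overlap as deposited and overlapped under both scalings.

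Sesn2 is in this list and the next. In the list of the amino acid response through Gcn2 and Atf4, 0 of 16 tested genes passed the threshold by limma. At an unadjusted p under 0.05, 5 had higher and 1 had lower values in TKO-labelled embryos, against 13.9% and 3.6% of all genes. These were 3 and 2 after median-ratio scaling, against 7.4% and 7.19% of all genes, and 2 and 2 after upper-quartile scaling, against 5.3% and 9.52%. Cth, the last enzyme of cysteine synthesis from methionine, was at 18.9, 13.955, 13.1 and 17.4 RPKM in TKO-labelled replicates 1 to 4 and at 8.46, 12.7, 9.87 and 8.92 RPKM in Control replicates 1 to 4. Cth had a log2 difference of 0.62 (limma adjusted p = 0.156). Psat1, an enzyme of serine synthesis, averaged 100.3 ± 3.28 RPKM in TKO-labelled and 77.5 ± 14.9 RPKM in Control embryos (SD, n = 4 each), with a log2 difference of 0.39 (limma adjusted p = 0.211). The groups of Cth and of Psat1 did not overlap as deposited and overlapped under both scalings. Amino acid and peptide carriers of other SLC families held 11 tested genes, of which 0 passed the threshold by limma, with 1 higher and 1 lower at an unadjusted p under 0.05, against 13.9% and 3.6% of all genes. These were 1 and 1 after median-ratio scaling and 0 and 1 after upper-quartile scaling. Pqlc2, a lysosomal exporter of cationic amino acids, averaged 11.03 ± 1.45 RPKM in TKO-labelled and 7.74 ± 2.35 RPKM in Control embryos (0.49, limma adjusted p = 0.219). Slc25a29, a mitochondrial carrier of basic amino acids, averaged 1.21 ± 0.556 and 3.08 ± 2.04 RPKM (-0.77, limma adjusted p = 0.286). Its 2 highest values, 5.63 and 3.58 RPKM, came from Control replicates 3 and 4, the Control embryos with the highest decidual marker sums, 396 and 241 RPKM. TKO-labelled replicate 3, with a decidual sum of 376 RPKM, had 1.49 RPKM, and the part of decidua in the result was not tested.

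The 33 members under the filter averaged 0.0124 to 0.795 RPKM over the 8 embryos, and 18 of them averaged under 0.1 RPKM. Of all members, 18 were listed at 0 in at least 1 embryo and 0 in every embryo. In 5 of the 33 a single embryo or more reached 1 RPKM, the highest value being the 2.02 RPKM of Slc6a2. Neighbouring genes did not share a level. Slc36a1, Slc36a2 and Slc36a3 lie next to each other with 0 protein-coding genes between them, and only Slc36a1 passed the filter. Slc6a12 and Slc6a13 are direct neighbours as well, and both stayed below it.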

How the data were processed

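RNA sequencing values of 8 single mouse embryos, 4 TKO-labelled and 4 Control, were used. The authors deposited 1 table of RPKM per gene symbol and embryo, the unit being taken from the table's name. HTSeq, without a version, and the mm9 build come from the submitters' processing notes. Neither aligner nor annotation, read total or strandedness is given in the sources used here, so reads of near-identical or antisense genes may have been split in unknown ways, and no coordinates are given for the values.

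From the deposited RPKM, log2(RPKM + 1) was fitted by group with limma 3.58.1 (R 4.3.3), with a variance trend and no covariate, on genes with at least 1 RPKM in at least 4 of 8 embryos. P-values are two-sided, with Benjamini-Hochberg adjustment across the tested genes and a threshold of 0.05. Exact permutations used all 70 assignments. Depth was estimated from low values of genes with 1 annotated transcript in GENCODE M21. It is the read total at which the largest share of them came out as 1 to 3 whole reads within 2%. At that total 30.8% to 38.0% did so, against a median of 1.14% to 1.61% over all totals tried. Counting 1 to 10 whole reads, 47.3% to 55.6% did so. The lengths come from another build and whole reads were not recovered for all values, so count models were left out. The fit was tested on simulated data.

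The members and lists were chosen with earlier results of these data known. Named members are the 2 highest of each family, those with an unadjusted p under 0.05 or without overlap, the heavy chains and their partners, and those averaging at least 5 RPKM. Of each other list, the 2 with the smallest p are named, and Cebpb and Atf4 were added after their values were seen. Other members are given by ranges, with values for those that passed the filter. Alternatives were other pseudocounts, filters, scalings and variance settings, a replicate block and leaving out each embryo. Promoter sequences are RefSeq's (GRCm38.p6). The labels' replicate numbers are not said to pair embryos, and same-numbered embryos did not all deviate together.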

Additional observations from a re-analysis of the deposited data

Results flagged for a closer look

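Values that stood apart in a group of 4 embryos by Dixon's test of the gap to the nearest other embryo at the 95% level were found 6 times in 62 groups examined. Chance gives about 1 in 20 for independent groups of normally spread values. The groups here include family sums of the same members, and the Slc7a13 value was set against values of 0. The 6 are thus not to be read against that rate. Slc7a9 in Control replicate 1 was at 8.32 RPKM, against 3.57 to 4.12 RPKM in the other Control embryos. Slc43a2 in the same embryo was at 5.73 RPKM, against 3.37 to 3.66 RPKM, and the summed Slc43 family at 9.93 RPKM, against 7.51 to 7.84 RPKM. Slc1a5 in TKO-labelled replicate 1 was at 25.5 RPKM, against 16.2 to 17.5 RPKM in the other TKO-labelled embryos. Slc6a6 in Control replicate 4 was at 5.88 RPKM, against 3.98 to 4.29 RPKM. Slc7a13 was at 0.025 RPKM in TKO-labelled replicate 3 and listed at 0 in the other TKO-labelled embryos, a value near the lowest the table holds.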

How the results depend on the processing

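Under all 17 alternatives 0 members passed the threshold by limma, and the 2 members at an unadjusted p under 0.05, Slc7a7 and Slc7a9, were among those at that p each time. With no filter on low values there were 4 such members, with Slc6a2 and Slc7a4 added, 0 genes of the table passed, and the median difference of members was -0.0199 over all 59. Over the table, 1 gene passed as reported, 2 with a filter of a mean of at least 5 RPKM, 2 with a robust variance trend and 0 with the replicate block. Leaving out 1 embryo at a time gave 0 to 36 genes over the table, the 36 without TKO-labelled replicate 1, 2 to 5 members at an unadjusted p under 0.05 (5 without Control replicate 1, 4 without Control replicate 4) and 1 to 4 members without overlap (4 without Control replicate 1, 2 without TKO-labelled replicate 1 and 2 without Control replicate 4). It turned the sign of 7 named members near 0, whose log2 differences then ran from -0.0538 to 0.36 for Slc7a14, -0.12 to 0.12 for Slc38a1, -0.24 to 0.0832 for Slc7a5, -0.12 to 0.0814 for Slc6a6, -0.28 to 0.0445 for Slc38a4, -0.30 to 0.14 for Slc6a8 and -0.27 to 0.0234 for Slc1a3. The cause of these changes was not tested, beyond the smaller number of embryos or the other set of genes.

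The replicate block gave 0 genes over the table and 3 members at an unadjusted p under 0.05, with Slc3a2 added. Same-numbered embryos correlated in their deviations from the group means by -0.02 to 0.40, highest for replicates 2 (0.40) and 3 (0.26). For 2 of 4 TKO-labelled embryos the closest Control embryo had their own number. Whether the numbers pair the embryos cannot be told from 4 embryos a group. Median-ratio and upper-quartile scaling moved the median difference of members to 0.07 and 0.04, and that of all genes to 0.01 and -0.03. The scaling of summed levels and of the 2 genes with the smallest p in each other list was tried after seeing the data. It ended the separation of the groups for the Slc7 sum, the CD98 light chain sum, Rragc, Cth and Psat1, and kept it for Slc7a7 and Sec13. With 4 embryos a group, 24 of the 26 intervals of members included 0, and differences within them were not detectable here.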
